A study of Homo sapiens with 6 samples.

Results

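The genes described here are the glycosyltransferases that build the outer sugar chains of proteins and lipids. They were taken from the table by symbol, as the rows named FUT, ST3GAL, ST6GAL, ST6GALNAC, ST8SIA, GALNT, GALNTL, B3GNT, B4GALT, B3GALT, GCNT or MGAT followed by a number, with A4GALT and C1GALT1. The rule found 81 of the 20811 genes in the table, and no measured value entered it. The cells were HuCCT1, an established human intrahepatic cholangiocarcinoma line. HuCCT1/CD90+ cells were transduced with a lentivirus carrying human THY1, the gene of CD90, and GFP behind the CMV promoter. HuCCT1/CD90- cells received the blank lentivirus (Lenti-CMV-GFP-2A-Puro-Blank), so both lines were transduced and carry GFP, and both grew in RPMI with 10% serum. RNA of 3 libraries per line was read with an amplicon panel that samples each gene at 1 short amplicon, and the values are RPM, a gene's reads per 1e6 reads on the panel's genes. SE is the standard error of a log2 fold change. The labels do not say whether the libraries of a line are separate cultures, so p-values measure only the spread between these libraries, and with 1 THY1 line and 1 blank line, an effect of CD90 cannot be told apart from any other difference between these cell populations.

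Sugar chains are assembled step by step in the Golgi. Polypeptide GalNAc-transferases start mucin-type O-glycans on serine or threonine, core enzymes and MGAT enzymes set the branches of O- and N-glycans, and galactosyl- and GlcNAc-transferases lengthen the chains. Fucosyl- and sialyltransferases then cap them, which creates blood group H, Lewis and sialylated epitopes, while a parallel set of enzymes builds gangliosides, globosides and lacto-series lipids on ceramide. In bile duct epithelium these enzymes dress the mucins and the apical surface, and sialylated, fucosylated chains such as CA19-9 are used as serum markers of biliary tumours.

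The libraries held 8587634 to 10551516 reads on genes, so that 3 reads, taken as the detection floor, correspond to 0.284 to 0.349 RPM. THY1 reads numbered 0, 1 and 0 in HuCCT1/CD90- and 435, 445 and 680 in HuCCT1/CD90+. The biliary keratin genes were high in both lines, with means of 3433 ± 330 and 3656 ± 321 RPM for KRT7 and of 3228 ± 214 and 4146 ± 214 RPM for KRT19 (SD, n = 3 each, HuCCT1/CD90- first). The 4 hepatocyte markers summed to 1.75 to 4.28 and 0 to 0.465 RPM with ALB under the floor in every library, and the 3 blood cell markers to 46.5 to 55.9 and 83.9 to 100 RPM, nearly all of it CD68, with PTPRC under the floor. The 4 fibroblast markers summed to 35.9 to 58.3 and 19.4 to 24.1 RPM, with COL3A1 and DCN at the floor in HuCCT1/CD90+. The 3 endothelial markers summed to 14.5 to 23.2 and 0.643 to 1.51 RPM, with VWF at the floor in HuCCT1/CD90-, and the part of these genes in the results below was not tested. In these bulk libraries, fewer cells that express a gene and less of its RNA per cell cannot be told apart.

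Of the 81 glycosyltransferase genes, 60 had more than 3 reads in at least 1 library. A gene was called when limma, fitted to log2(RPM + 1) of all 20811 genes, gave a Benjamini-Hochberg adjusted p of at most 0.05 and a fold change of at least 1.5. By this rule 16 members were higher and 10 lower in HuCCT1/CD90+, which is 32.1% of the 81, against a background of 15.1% of all genes (7.59% higher and 7.49% lower). Low genes are hard to call, and where the mean over the 6 libraries reached 1 RPM, 24 of 56 members (42.9%) and 24.1% of all genes were called. All 3 HuCCT1/CD90+ libraries lay above all 3 HuCCT1/CD90- libraries for 28 members and below them for 18, where 17.3% and 17.7% of all genes did so. The median log2 fold change was 0 over the 81 members and over all genes, lists that both hold many genes without reads, and 0.23 over the 56 members against -0.0086 over all genes of at least 1 RPM. Among the capping enzymes FUT1, FUT2, FUT6, ST6GAL1, ST6GALNAC2 and ST6GALNAC5 were higher, and ST3GAL2, ST3GAL3, ST3GAL5, ST6GALNAC3 and ST8SIA1 were lower.

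**Figure D1:**
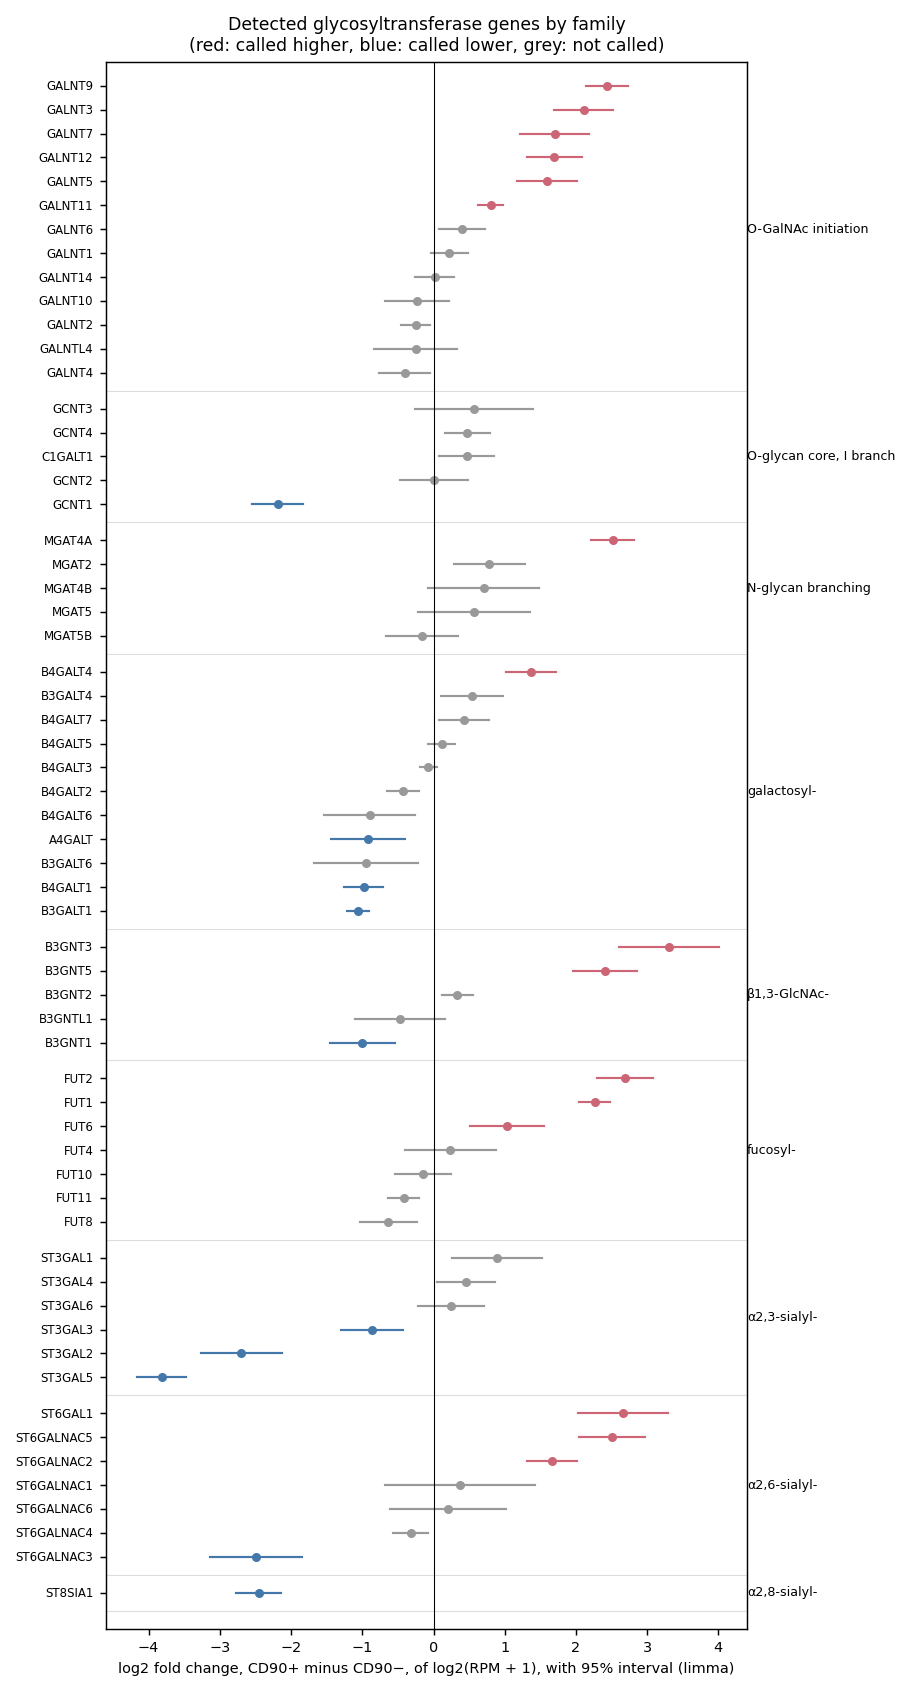
Log2 fold change (HuCCT1/CD90+ minus HuCCT1/CD90-, on the log2(RPM + 1) scale) of the 60 detected glycosyltransferase genes with its 95% interval from limma, grouped by family. Red genes were called higher (16), blue genes lower (10) and grey genes were not called. On this scale B3GNT3 has the largest rise at 3.31 and ST3GAL5 the largest fall at -3.82.

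Promoter windows are shown first for a neighbouring gene pair and for GALNT3, which all rose, and for ST3GAL5, which fell. FUT1 and FUT2, the H blood group fucosyltransferases, lie 42061 bases apart on chromosome 19 of GRCh38 (GENCODE 29). The windows reach from 250 bases before to 50 after 1 RefSeq start per gene, which need not be the gene's outermost start. The ST3GAL5 window lies inside that gene as GENCODE 29 places it (85837120 to 85905199 on chromosome 2). Other starts of a gene were not searched. The windows are on GRCh38.p14, a later build than the hg19 named in the submitters' processing notes. Capitals mark the E-box CACCTG on either strand (CAGGTG on the other), the letters that ZEB and SNAI family repressors are known to bind. The FUT1 window is chr19:48755309-48755608 on the minus strand, that of FUT2 is chr19:48695721-48696020 on the plus strand, that of GALNT3 is chr2:165794198-165794497 on the minus strand and that of ST3GAL5 is chr2:85888941-85889240 on the minus strand.
FUT1: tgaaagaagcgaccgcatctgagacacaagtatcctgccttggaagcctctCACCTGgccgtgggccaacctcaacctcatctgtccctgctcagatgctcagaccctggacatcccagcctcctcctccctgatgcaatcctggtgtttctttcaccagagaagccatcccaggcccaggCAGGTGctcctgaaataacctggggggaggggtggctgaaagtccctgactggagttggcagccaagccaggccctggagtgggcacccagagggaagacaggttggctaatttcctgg
FUT2: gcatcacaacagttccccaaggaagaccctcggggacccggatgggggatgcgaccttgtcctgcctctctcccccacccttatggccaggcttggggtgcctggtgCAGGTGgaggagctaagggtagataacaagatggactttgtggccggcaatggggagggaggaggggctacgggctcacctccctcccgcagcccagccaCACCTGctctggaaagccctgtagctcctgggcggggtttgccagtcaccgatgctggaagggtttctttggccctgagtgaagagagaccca
GALNT3: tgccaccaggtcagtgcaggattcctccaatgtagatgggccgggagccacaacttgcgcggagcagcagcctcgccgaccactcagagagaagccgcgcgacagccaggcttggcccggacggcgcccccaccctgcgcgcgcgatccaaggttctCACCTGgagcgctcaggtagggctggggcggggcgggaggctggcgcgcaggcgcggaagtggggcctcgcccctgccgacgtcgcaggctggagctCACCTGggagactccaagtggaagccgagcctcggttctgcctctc
ST3GAL5: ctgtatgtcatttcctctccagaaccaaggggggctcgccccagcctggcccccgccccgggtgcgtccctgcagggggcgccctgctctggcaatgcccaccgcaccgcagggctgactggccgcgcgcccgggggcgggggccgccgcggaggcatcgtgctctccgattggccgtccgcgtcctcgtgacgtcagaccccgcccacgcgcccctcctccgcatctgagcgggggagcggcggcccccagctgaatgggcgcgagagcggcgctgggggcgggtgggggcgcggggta
FUT1, FUT2 and GALNT3 hold 2 matches each and ST3GAL5 none. Windows were found for 58 of the 81 members. The E-box occurs in 4 of the 13 windows of members called higher (FUT1, FUT2, GALNT3 and GALNT12), in 0 of the 8 of members called lower and in 7 of the 37 of members not called, and in 20.6% of all 35116 windows of this length. A match is a description of the letters and not a binding site. These 4 windows were chosen after the values and matches were seen.

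The genes that start O-glycans rose or did not pass the test. Of the 19 polypeptide GalNAc-transferase genes, 6 were called higher and none lower, and 6 others were not detected. The called share was 31.6%, beside the 15.1% of all genes. GALNT3, which glycosylates FGF23 and mucins, had 12.8, 15.0 and 17.9 RPM in HuCCT1/CD90- and 78.0, 66.4 and 62.3 RPM in HuCCT1/CD90+. The groups did not overlap, and its mean was 4.52 times higher (log2 fold change 2.11, SE 0.15, adjusted p = 0.0026). GALNT5 had 40.2, 47.6 and 60.2 RPM against 146, 146 and 155 RPM, a log2 fold change of 1.59 (adjusted p = 0.0060). GALNT12 had 20.0, 21.0 and 22.1 RPM against 63.9, 86.6 and 62.8 RPM, a log2 fold change of 1.70 (adjusted p = 0.0040). In both genes every HuCCT1/CD90+ library was above every HuCCT1/CD90- library. GALNT7, a transferase that prefers peptides already carrying GalNAc, had 28.2, 36.3 and 42.8 RPM against 130, 105 and 118 RPM (log2 fold change 1.70, adjusted p = 0.0070). Blocking on the replicate number gave 0.054. GALNT9 was low in HuCCT1/CD90-, at 0.474, 0.856 and 0.582 RPM (5, 8 and 6 reads), and reached 7.83, 8.50 and 7.16 RPM in HuCCT1/CD90+. Its mean was 12.3 times higher (log2 fold change 2.43, SE 0.11, adjusted p = 0.00091).

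GALNT11 rose less than the others. It had 10.5, 11.2 and 10.1 RPM in HuCCT1/CD90- and 20.6, 17.9 and 19.4 RPM in HuCCT1/CD90+, a log2 fold change of 0.81 (adjusted p = 0.0034). GALNT11 lies on chromosome 7, where the median over the 50 nearest genes of at least 10 RPM was 0.52 on the log2 scale. With this shift taken out its log2 fold change was 0.31 (adjusted p = 0.043), below the minimum fold change, and over all alternatives its adjusted p ranged from 0.00024 to 0.043. GALNT2, one of the broadly acting transferases and the family member with the highest RPM, had 301, 263 and 298 RPM against 239, 228 and 258 RPM (log2 fold change -0.25, 95% interval from -0.45 to -0.04, adjusted p = 0.10). Its neighbours on chromosome 1 had a median of -0.42, and with this shift taken out the value was 0.17. GALNT1, GALNT4, GALNT6, GALNT10, GALNT14 and GALNTL4 were not called, with log2 fold changes from -0.40 for GALNT4 to 0.39 for GALNT6. GALNTL1, GALNTL2, GALNTL5, GALNTL6, GALNT8 and GALNT13 had at most 3 reads in every library. Summed over the family, the HuCCT1/CD90- libraries held 734, 775 and 819 RPM and the HuCCT1/CD90+ libraries 1023, 1011 and 1024 RPM, so the groups did not overlap for the sum either.

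**Figure D2:**
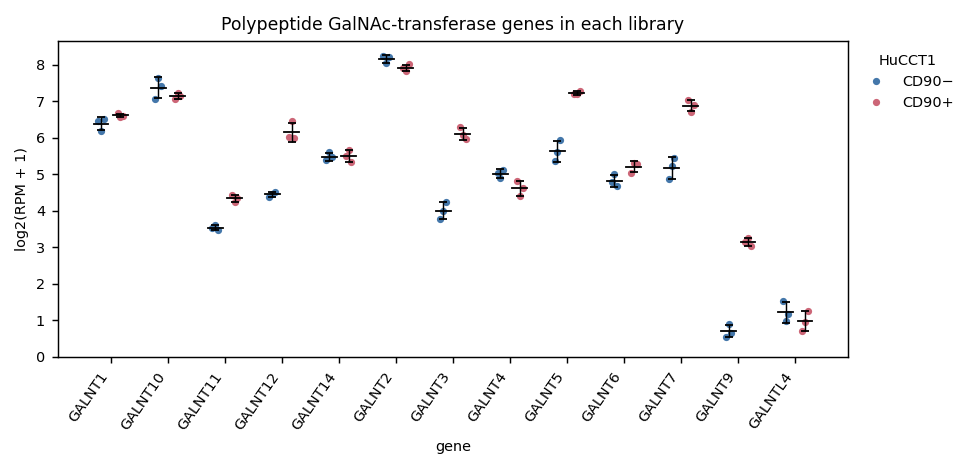
log2(RPM + 1) of the 13 detected polypeptide GalNAc-transferase genes in each of the 3 HuCCT1/CD90- (blue) and 3 HuCCT1/CD90+ (red) libraries, with the mean and SD as black bars. GALNT3, GALNT5, GALNT7, GALNT9, GALNT11 and GALNT12 lie higher in HuCCT1/CD90+, while GALNT14 overlaps.

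At the next step, 1 of the 6 O-glycan core and I-branching genes was called lower and none higher. That share of 16.7% was near the 15.1% of all genes, so the count does not set the family apart. GCNT1, which adds the branch that turns core 1 into core 2 O-glycans, had 31.0, 41.7 and 36.6 RPM in HuCCT1/CD90- and 7.08, 6.52 and 7.92 RPM in HuCCT1/CD90+. It fell by 2.19 on the log2 scale, 5.08 times by the means (SE 0.13, adjusted p = 0.0018). C1GALT1, the core 1 synthase, had 45.9, 49.5 and 53.3 RPM against 83.4, 61.1 and 63.3 RPM and was not called (log2 fold change 0.46, 95% interval from 0.08 to 0.85, adjusted p = 0.11). The I-branching gene GCNT2 had means of 21.2 ± 3.38 and 21.3 ± 3.50 RPM (SD, n = 3 each), and its 95% interval ran from -0.47 to 0.48. GCNT3, which can make core 2 and core 4, spanned 0.853 to 1.5 RPM and 1.07 to 3.03 RPM with overlapping groups (adjusted p = 0.32), GCNT4 had no read in HuCCT1/CD90- and 3, 2 and 6 reads in HuCCT1/CD90+, and GCNT7 was not detected. ST3GAL1 caps the core 1 disaccharide on which GCNT1 acts, and the ratio of its RPM to that of GCNT1 within a library was 0.596, 0.772 and 0.599 in HuCCT1/CD90- and 5.45, 7.34 and 6.04 in HuCCT1/CD90+. Levels of different genes are read from different amplicons, so only the change of this ratio between the lines is comparable, not its size.

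Among the 7 N-glycan branching genes, MGAT4A was called higher and none was called lower. This share of 14.3% was also near the 15.1% of all genes. MGAT4A, which adds the β1,4 branch to the first antenna, had 5.97, 6.53 and 7.57 RPM in HuCCT1/CD90- and 42.8, 38.8 and 47.5 RPM in HuCCT1/CD90+. The groups were far apart and the mean was 6.43 times higher (log2 fold change 2.52, SE 0.11, adjusted p = 0.00089). Its paralog MGAT4B had 68.8, 123 and 119 RPM against 135, 167 and 195 RPM, with no overlap but a wide spread (log2 fold change 0.70, adjusted p = 0.20). Over the alternatives its adjusted p ranged from 0.0029 to 0.44, and it was called with edgeR, DESeq2 and both filters on low values. MGAT2, which starts the second antenna, had 49.1, 46.5 and 43.2 RPM against 105, 71.6 and 69.1 RPM (log2 fold change 0.78, adjusted p = 0.054), and over the alternatives its adjusted p ranged from 6.6e-05 to 0.16. MGAT5, the enzyme of the β1,6 branch, had 21.6, 33.2 and 33.2 RPM against 34.4, 39.1 and 60.0 RPM and was not called (adjusted p = 0.29). MGAT5B did not separate the lines, and MGAT3, which adds the bisecting GlcNAc, and MGAT4C were not detected.

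**Figure D3:**
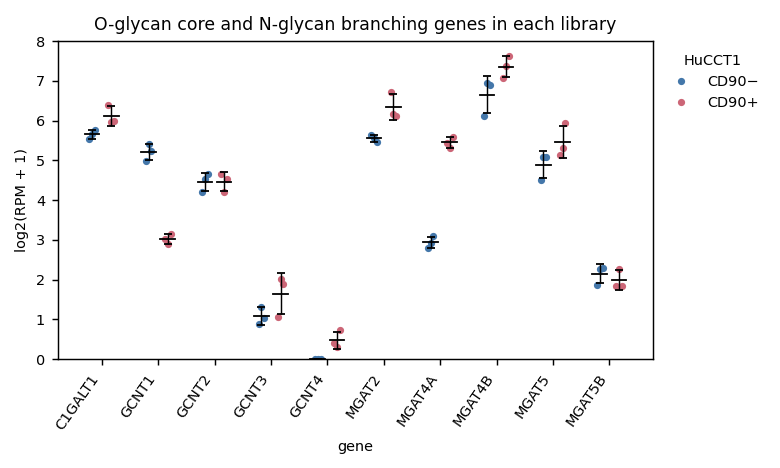
log2(RPM + 1) of the detected O-glycan core and N-glycan branching genes in each of the 3 HuCCT1/CD90- (blue) and 3 HuCCT1/CD90+ (red) libraries, with the mean and SD as black bars. GCNT1 is lower and MGAT4A higher in HuCCT1/CD90+, and the libraries of MGAT2, MGAT4B and MGAT5 are separate but closer together.

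Galactosyltransferase genes moved in both directions, with 1 of 13 called higher and 3 lower (30.8%, beside the 15.1% of all genes). B4GALT1, which adds galactose to GlcNAc on N- and O-glycans, had 224, 188 and 189 RPM in HuCCT1/CD90- and 92.7, 111 and 98.9 RPM in HuCCT1/CD90+. It fell by 0.98 on the log2 scale (SE 0.10, adjusted p = 0.0070), and with the replicate block its adjusted p was 0.062. B4GALT4, of the same family and active on sulfated GlcNAc, had 18.8, 15.1 and 17.7 RPM against 52.2, 40.3 and 45.4 RPM. Its rise was 1.37 on the log2 scale (adjusted p = 0.0053), and 0.80 with the median of 0.58 of its neighbours on chromosome 3 taken out, which it still passed. The ratio of B4GALT4 to B4GALT1 within a library went from 0.0804 to 0.0934 in HuCCT1/CD90- to 0.365 to 0.563 in HuCCT1/CD90+. B3GALT1, a type 1 chain galactosyltransferase, had 10, 10 and 13 reads (0.948, 1.07 and 1.26 RPM) in HuCCT1/CD90- and no read in HuCCT1/CD90+. It was at least 3.13-fold lower against a floor of 3 reads per library (adjusted p = 0.0014). Of the genes without a call, B4GALT2 had an adjusted p of 0.035 and a log2 fold change of -0.43, under the minimum fold change. B4GALT3 and B4GALT5 had intervals from -0.19 to 0.05 and from -0.07 to 0.30, and B3GALT2 and B3GALT5 were not detected.

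B4GALT7 and B3GALT6 add the galactoses of the linker that joins glycosaminoglycans to core proteins. B3GALT6 had 116, 67.5 and 73.4 RPM against 52.7, 35.9 and 40.5 RPM, and B4GALT7 17.2, 23.4 and 19.8 RPM against 27.8, 29.1 and 25.0 RPM. Neither passed the test, with log2 fold changes of -0.95 (adjusted p = 0.087) and 0.43 (adjusted p = 0.10). For B3GALT6 the adjusted p ranged from 5.6e-05 to 0.25 over the alternatives and was 0.035 with the replicate block.

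Of the 8 β1,3-GlcNAc-transferase genes, 2 were called higher and 1 lower (37.5%, beside the 15.1% of all genes). B3GNT3, which extends core 1 O-glycans, had 9.95, 18.9 and 12.2 RPM in HuCCT1/CD90- and 130, 162 and 130 RPM in HuCCT1/CD90+. It lies on chromosome 19, its mean was 10.3 times higher, and its log2 fold change was 3.31 (SE 0.26, adjusted p = 0.0032). By the fold of means, which has no offset, FUT2 (12.8) and GALNT9 (12.3) had larger values than B3GNT3, differences that were not tested. B3GNT5, which makes the precursor of lacto-series glycolipids, had 5.88, 5.88 and 7.76 RPM against 45.2, 32.5 and 38.8 RPM, a log2 fold change of 2.41 (adjusted p = 0.0023) and a mean 5.97 times higher. Its neighbours on chromosome 3 had a median of 0.70, and with this taken out the log2 fold change of B3GNT5 was 1.73, still a call. B3GNT2, a main enzyme of poly-N-acetyllactosamine chains, had 24.2, 19.8 and 21.4 RPM against 28.8, 26.8 and 27.2 RPM and was not called (log2 fold change 0.33, adjusted p = 0.059). The row named B3GNT1 had 15.4, 22.8 and 19.3 RPM against 9.65, 9.55 and 7.81 RPM (log2 fold change -1.0, adjusted p = 0.024, or 0.084 with the block, and from 3.5e-05 to 0.085 over all alternatives). Its identity is uncertain, since this symbol is listed as an older name of both B3GNT2 and B4GAT1. B3GNTL1 overlapped between the lines, and B3GNT4, B3GNT6 and B3GNT8 were not detected.

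Of the 8 fucosyltransferase genes, 3 were called higher and none lower (37.5%, beside the 15.1% of all genes). FUT1 and FUT2, whose windows are printed above, both add the α1,2-fucose of the H antigen. FUT1 had 2.18, 2.25 and 1.94 RPM in HuCCT1/CD90- and 12.5, 14.9 and 14.6 RPM in HuCCT1/CD90+ (6.61 times higher, log2 fold change 2.26, SE 0.08, adjusted p = 0.00053). FUT2, the secretor gene, had 0.663, 0.963 and 0.970 RPM (7, 9 and 10 reads) against 9.65, 13.4 and 10.3 RPM (90, 115 and 95 reads). Its mean was 12.8 times higher (log2 fold change 2.69, SE 0.15, adjusted p = 0.0014), and neither gene's libraries overlapped between the lines. The neighbours of FUT1 and FUT2 on chromosome 19 had a median of 0.19 on the log2 scale. FUT6, an α1,3-fucosyltransferase that completes Lewis x type structures, had no read in HuCCT1/CD90- and 5, 12 and 12 reads in HuCCT1/CD90+, at least 3.36-fold higher against the floor (adjusted p = 0.031, or 0.089 with the replicate block, and from 0.00032 to 0.10 over all alternatives). FUT6 has close paralogs whose reads could be shared with it, so its value is uncertain.

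FUT8, the core α1,6-fucosyltransferase of N-glycans and the member with the highest RPM, had 488, 516 and 622 RPM in HuCCT1/CD90- and 408, 313 and 326 RPM in HuCCT1/CD90+. The groups did not overlap, but its log2 fold change of -0.64 missed the threshold (95% interval from -1.04 to -0.23, adjusted p = 0.054, from 0.00022 to 0.17 over the alternatives). FUT11 had 57.1, 69.0 and 66.0 RPM against 48.7, 48.2 and 45.8 RPM, an adjusted p of 0.033 at a log2 fold change of -0.42, under the minimum fold change. FUT4, another α1,3-fucosyltransferase, and FUT10 overlapped between the lines, and FUT9 was at 0 in every library. No row was named FUT3, FUT5 or FUT7, so those genes could not be read.

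**Figure D4:**
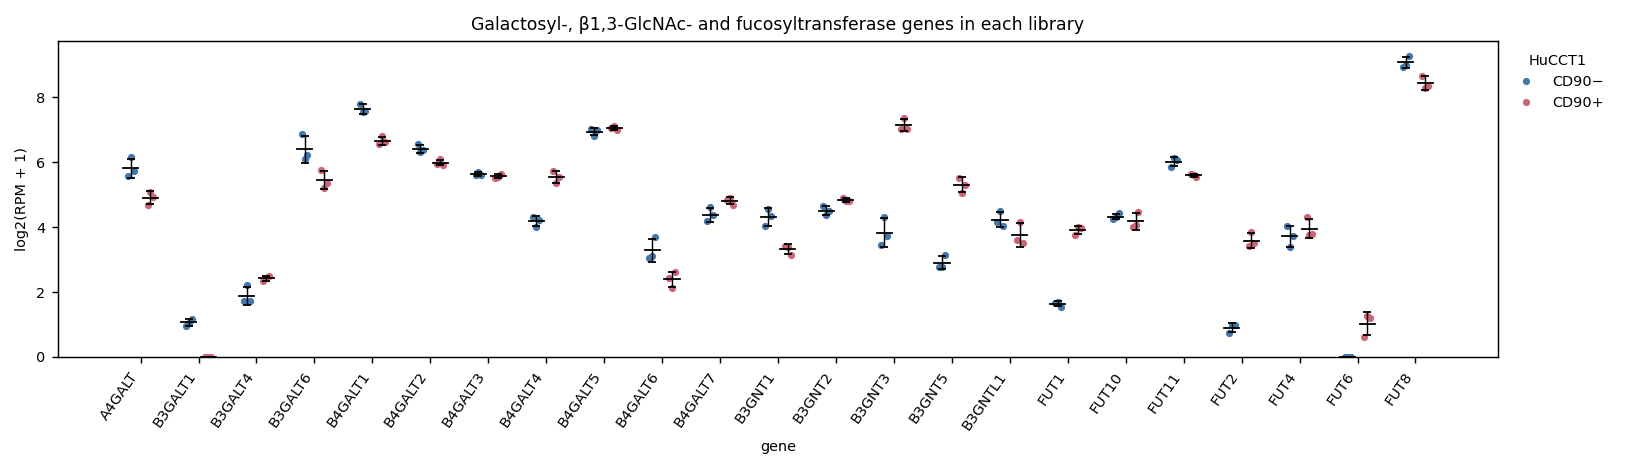
log2(RPM + 1) of the detected galactosyl-, β1,3-GlcNAc- and fucosyltransferase genes in each of the 3 HuCCT1/CD90- (blue) and 3 HuCCT1/CD90+ (red) libraries, with the mean and SD as black bars. B3GNT3, B3GNT5, FUT1 and FUT2 lie higher in HuCCT1/CD90+, B4GALT1 and A4GALT lower, and B3GALT1 is at 0 there.

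Of the 6 α2,3-sialyltransferase genes, 3 were called lower and none higher (50%, beside the 15.1% of all genes). ST3GAL5, the GM3 synthase that opens the ganglioside pathway, had 19.0, 24.4 and 22.4 RPM in HuCCT1/CD90- and 0.429, 0.699 and 0.760 RPM in HuCCT1/CD90+ (201, 228 and 231 reads against 4, 6 and 7). Its mean was 34.9 times lower, and its log2 fold change was -3.82 (SE 0.13, adjusted p = 0.00047). ST3GAL2, which sialylates core 1 type chains on gangliosides and O-glycans, had 49.9, 58.1 and 44.7 RPM against 5.04, 8.15 and 8.14 RPM (7.16 times lower, log2 fold change -2.70, adjusted p = 0.0032). ST3GAL3, which acts on N-acetyllactosamine, was low, at 2.46, 1.5 and 1.94 RPM against 0.858, 0.582 and 0.434 RPM (3.15 times lower, log2 fold change -0.86, adjusted p = 0.032). That call was lost with the replicate block (adjusted p = 0.050, over the threshold before rounding), and its adjusted p ranged from 0.0021 to 0.10 over the alternatives. ST3GAL1, on the same core 1 substrate as ST3GAL2, had 18.5, 32.2 and 21.9 RPM against 38.6, 47.9 and 47.9 RPM, above in every library but not called (log2 fold change 0.89, adjusted p = 0.072, from 0.00014 to 0.20 over the alternatives). ST3GAL4 had 26.5, 37.0 and 26.5 RPM against 39.9, 39.7 and 43.2 RPM (adjusted p = 0.13), and ST3GAL6 overlapped.

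Among the 8 α2,6-sialyltransferase genes, 3 were called higher and 1 lower (50%, beside the 15.1% of all genes). ST6GAL1, which caps N-glycan lactosamine with α2,6-sialic acid, lies on chromosome 3 of GRCh38 and had 4.45, 8.03 and 7.37 RPM in HuCCT1/CD90- and 42.7, 53.2 and 42.9 RPM in HuCCT1/CD90+. Its mean was 6.99 times higher (log2 fold change 2.66, SE 0.24, adjusted p = 0.0044), and with the median of 0.60 of its neighbours taken out the log2 fold change was 2.07. ST6GALNAC5, which sialylates gangliosides, had 7.30, 7.17 and 9.89 RPM against 60.0, 47.4 and 45.2 RPM (6.27 times higher, log2 fold change 2.51, adjusted p = 0.0023). ST6GALNAC2, which acts on core 1 O-glycans, had 0.569, 0.749 and 0.485 RPM against 3.32, 4.31 and 4.67 RPM (6.82 times higher, log2 fold change 1.67, adjusted p = 0.0031). For all 3 genes the lowest HuCCT1/CD90+ library was above the highest HuCCT1/CD90- library. ST6GALNAC3, which like ST6GALNAC5 acts on gangliosides and lies on chromosome 1, went the other way, with 6.73, 6.53 and 7.28 RPM (71, 61 and 75 reads) against 0.965, 0.233 and 0.109 RPM (9, 2 and 1 reads). Its mean was 15.7 times lower (log2 fold change -2.50, SE 0.24, adjusted p = 0.0056). The size of this fold rests on HuCCT1/CD90+ replicate 1, since the other libraries of that line were under the 3-read floor and without replicate 1 the ratio of means was 40.0 (log2 fold change -2.74). ST6GALNAC1, the sialyl-Tn synthase, ST6GALNAC4 and ST6GALNAC6 were not called, with log2 fold changes from -0.32 to 0.38, and ST6GAL2 was not detected. Summed over the 8 genes, the libraries held 37.9, 44.4 and 47.1 RPM in HuCCT1/CD90- and 127, 127 and 111 RPM in HuCCT1/CD90+.

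ST8SIA1, the GD3 synthase, was the only 1 of the 6 α2,8-sialyltransferase genes detected. It had 8.34, 11.0 and 9.31 RPM in HuCCT1/CD90- and 1.07, 0.932 and 0.760 RPM in HuCCT1/CD90+, a mean 10.4 times lower (log2 fold change -2.45, SE 0.12, adjusted p = 0.0010). ST8SIA2, ST8SIA3 and ST8SIA4 had no read in any library, and ST8SIA5 and ST8SIA6 stayed under the floor.

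**Figure D5:**
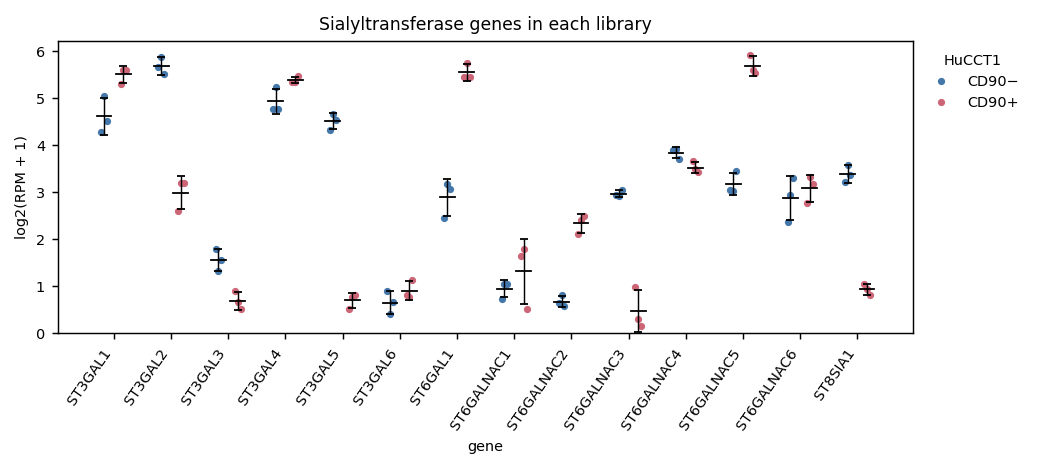
log2(RPM + 1) of the 14 detected sialyltransferase genes in each of the 3 HuCCT1/CD90- (blue) and 3 HuCCT1/CD90+ (red) libraries, with the mean and SD as black bars. ST3GAL2, ST3GAL5, ST6GALNAC3 and ST8SIA1 are lower and ST6GAL1, ST6GALNAC2 and ST6GALNAC5 higher in HuCCT1/CD90+.

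Read along the glycolipid routes, called members of the branches from lactosylceramide moved in both directions. Lactosylceramide is made by the enzymes of B4GALT5, which did not separate the lines, and B4GALT6, which had 7.30, 7.60 and 12.0 RPM against 4.39, 3.38 and 5.10 RPM and was not called (adjusted p = 0.072). Of the ganglioside genes described above, ST3GAL5, ST3GAL2, ST6GALNAC3 and ST8SIA1 fell and ST6GALNAC5 rose. B4GALNT1, a ganglioside gene outside the symbol rule, was low in both lines and was not called (adjusted p = 0.69). It had 10, 15 and 7 reads in HuCCT1/CD90- and 3, 10 and 8 in HuCCT1/CD90+. The globoside gene A4GALT, the Gb3 synthase, had 47.1, 70.0 and 52.2 RPM in HuCCT1/CD90- and 25.0, 33.3 and 29.3 RPM in HuCCT1/CD90+ (log2 fold change -0.92, adjusted p = 0.041). Its call was lost with any 1 library left out, where its adjusted p was 0.061 to 0.13. The lacto-series gene B3GNT5 rose, and within a library its ratio to ST3GAL5 was 0.308, 0.241 and 0.346 in HuCCT1/CD90- and 105, 46.5 and 51.1 in HuCCT1/CD90+. B3GALT4, which makes GM1 and GD1b, had 2.27, 3.64 and 2.33 RPM against 4.07, 4.42 and 4.67 RPM and was not called (adjusted p = 0.095). This grouping by route was made with the values known and carries no test of its own, and glycans themselves were not measured.

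Of 26 genes of sugar nucleotide synthesis and transport found in the table, 2 were higher and 2 lower (15.4%), beside the 15.1% of all genes, with a median log2 fold change of 0.20. GFPT2, an entry enzyme of the hexosamine route, had 16.4, 32.7 and 38.8 RPM in HuCCT1/CD90- and 6.75, 3.38 and 5.32 RPM in HuCCT1/CD90+ (log2 fold change -2.26, adjusted p = 0.029). PGM3, of the same route, fell by 0.96 on the log2 scale (adjusted p = 0.023). Also of this route, GFPT1, GNPNAT1 and UAP1 were not called, with log2 fold changes of -0.22, 0.63 and 0.30. TSTA3, which completes GDP-fucose, had 89.8, 68.3 and 57.7 RPM against 132, 135 and 116 RPM (log2 fold change 0.84, adjusted p = 0.046), and UGP2, which makes UDP-glucose, rose by 0.60 (adjusted p = 0.048). With the replicate block all 4 of these calls were lost, with adjusted p of 0.12 for GFPT2, 0.092 for PGM3, 0.073 for TSTA3 and 0.11 for UGP2. Of the sialic acid donor genes, CMAS, NANS, GNE, NANP and the transporter SLC35A1 were not called, with log2 fold changes from -0.22 for SLC35A1 to 0.72 for CMAS. NANS passed on its adjusted p of 0.0026 but its log2 fold change of 0.43 was under the minimum. Among genes that remove sugars in lysosomes or at membranes, the fucosidase FUCA2 was lower (log2 fold change -0.62, adjusted p = 0.035), while the sialidases NEU1 (adjusted p = 0.070, or 0.022 and called with the replicate block) and NEU3 (adjusted p = 0.037, log2 fold change 0.36, under the minimum) were not called.

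The calls of 18 of the 26 members held in every alternative that tested them. The exceptions were A4GALT, B3GALT1, B3GNT1, B4GALT1, FUT6, GALNT7, GALNT11 and ST3GAL3, each of which kept its direction. There were 25 members with a mean of at least 10 RPM in a line and no call, with log2 fold changes from -0.95 for B3GALT6 to 0.89 for ST3GAL1. The 5 largest of these were B3GALT6, ST3GAL1, MGAT2, MGAT4B and FUT8.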

How the data were processed

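Total RNA was reverse-transcribed and amplified by the authors with the Ion AmpliSeq Transcriptome panel, read on the GeneStudio S5 Prime, and counted per amplicon with the ampliSeqRNA plugin of Torrent Suite Server. The submitters' processing notes name hg19 and the Transcriptome Analysis Console. The deposited values are RPM in 1 table, 3 libraries per line. Every value was a whole multiple of 1 read (100% within 0.05 reads), so reads were recovered, and they were used for floors, edgeR 4.0.16 and DESeq2 1.42.0. Without molecular identifiers, floors describe counting error alone. The lines were compared with limma 3.58.1 in R 4.3.3 on log2(RPM + 1), without a filter, over all genes, two-sided. This scale understates changes of low genes, and folds of means are given beside it for the low called members. All pairs of libraries of a line differed by more than sampling noise in a chi-square test. Same-numbered libraries deviated together over all genes (r = 0.209, 0.320 and 0.178), so the numbers may pair the libraries. The labels give no meaning for them and the methods state no pairing. The main fit therefore has no block, and its p-values leave a possible pairing out. The replicate block was fitted as an alternative.

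Called members were named, the 24 with the largest changes and at least 1 RPM in a line with every library, together with each family's highest member and the 5 largest uncalled members of at least 10 RPM. Members and lists were chosen with earlier results of these data known. Gene positions were matched by symbol to GENCODE 29 (GRCh38). Other alternatives were offsets of 0.1 and 5 RPM, filters at 1 and 10 RPM, quantile normalization, median centring, trend and robust eBayes, each library left out, a minimum fold change of 2, and the median of the 50 nearest genes of at least 10 RPM taken out. The fit was tested on simulated data, where it missed many true changes at 3 libraries per line, so a gene without a call is not shown to be unchanged. A few genes of the marker, supply, removal and lectin lists are not reported here.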

Additional observations from a re-analysis of the deposited data

How the results depend on the processing

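The 16 higher and 10 lower calls among the members became 14 to 21 and 6 to 13 over the alternatives. They were 14 and 8 with the replicate block, 19 and 12 with edgeR, and 21 and 13 with DESeq2. Only a minimum fold change of 2 moved a member count by over 1.5 times, to 6 lower. With 1 library left out they were 15 to 18 higher and 7 to 8 lower. The replicate block removed the calls of B3GNT1, B4GALT1, FUT6, GALNT7 and ST3GAL3 and changed no other call among the 26 members, and it added B3GALT6 as lower. Of the 71 genes in the supply, removal, other enzyme and lectin lists, 7 were higher and 9 lower (22.5%, beside the 15.1% of all genes). The higher count was 11 with edgeR, 11 with DESeq2 and 3 at a minimum fold change of 2, and 5 to 7 with 1 library left out. The lower count was 5 at a minimum fold change of 2 and 4 to 7 with 1 library left out, with 4 without HuCCT1/CD90+ replicate 3 and 5 without HuCCT1/CD90+ replicate 2 or HuCCT1/CD90- replicate 3. With the block these lists gave 5 higher and 6 lower, without UGP2, TSTA3, LGALS3, GFPT2, PGM3, LFNG and GAL3ST1, and NEU1 gained a call. The log2 fold change of THY1, at the floor in HuCCT1/CD90-, was 5.79 and depended on the offset and tool, with 3.61 at an offset of 5 RPM, 8.79 at 0.1 RPM, 10.3 with edgeR and 10.7 with DESeq2, against 5.60 to 5.92 with 1 library left out. No named member that was called changed direction. Over genes averaging 1 RPM or more, the median log2 fold change was -0.0086, and -0.035 after median centring. With at most 3 reads in every library, 21 members were below detection at this depth, which does not show that they are absent. Members with a few reads, such as B3GALT1 and FUT6, lost their call with an offset of 5 RPM, under which a small level cannot reach the minimum fold change.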

Other observations

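Enzymes that decorate glycans but fall outside the symbol rule were also read from the same fit. Of 22 such genes found in the table, 2 were higher, 3 lower and 6 not detected, a called share of 22.7% beside the 15.1% of all genes. B4GALNT3, which makes the LacdiNAc unit, had 0.569, 0.321 and 0.194 RPM in HuCCT1/CD90- and 21.0, 19.7 and 16.7 RPM in HuCCT1/CD90+, a log2 fold change of 3.89 (adjusted p = 0.00053 from limma), above that of B3GNT3. CHST4, a GlcNAc sulfotransferase of L-selectin ligands, had 0.379, 0.428 and 0.194 RPM against 2.14, 1.51 and 1.52 RPM (log2 fold change 1.03, adjusted p = 0.010). GAL3ST1, the sulfatide synthase, had 39, 56 and 25 reads against 0, 1 and 1, at least 11.6-fold lower against a floor of 3 reads per library (adjusted p = 0.012, or 0.055 with the replicate block). LFNG, the Fringe enzyme that modifies Notch, fell by 0.72 on the log2 scale (adjusted p = 0.0070, or 0.051 with the block) and B3GALNT2 by 0.65 (adjusted p = 0.029). C1GALT1C1, the chaperone of C1GALT1, had means of 63.7 and 54.6 RPM and was not called (adjusted p = 0.32).

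Lectin genes, whose proteins bind such glycans, were read from the same fit. LGALS3, which binds lactosamine chains, had 173, 204 and 208 RPM in HuCCT1/CD90- and 341, 340 and 308 RPM in HuCCT1/CD90+ (log2 fold change 0.76, adjusted p = 0.0095, or 0.065 with the replicate block). LGALS9 rose by 1.92 on the log2 scale (adjusted p = 0.0070) and LGALS12 fell by 3.53 (adjusted p = 0.0014). SELP, the P-selectin gene, had means of 515 and 0.586 RPM (log2 fold change -8.34, adjusted p = 0.00015). The leukocyte gene PTPRC was at or under the floor in every library, and the endothelial gene CDH5 had means of 16.6 and 0.293 RPM. LGALS1, the galectin with the highest RPM, had means of 566 ± 93.8 and 396 ± 60.6 RPM (SD, n = 3 each) and was not called (adjusted p = 0.14).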
